A study of Mus musculus with 8 samples.

Results

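The genes described here serve protein folding, stress sensing and protein degradation in the endoplasmic reticulum, the compartment in which secreted and membrane proteins are made. They are 32 genes chosen by symbol among the 54232 gene rows of the expression table. Of these, 17 fold, oxidise or import proteins, 4 are stress sensors or the transcription factor Xbp1, and 11 belong to the machinery that removes misfolded proteins. The study compared cultured mouse cells of C57BL/6 background, labelled female germline stem cells (FGSCs), after 3 h with a compound known here by its code name C28 (028 in the sample names) or with the solvent DMSO. RNA was sequenced from 3 DMSO and 3 C28 libraries. No genetic change is named in the labels, which do not say whether the libraries came from separate cultures, so the p-values measure only the spread between these libraries.

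Unfolded proteins in this compartment set off the unfolded protein response. It has 3 membrane sensors. ATF6 is cut and its free part enters the nucleus, IRE1 (the product of Ern1) splices Xbp1 mRNA into the form that encodes an active transcription factor, and PERK (the product of Eif2ak3) phosphorylates the translation factor eIF2 alpha, which favours translation of ATF4. ATF6 and XBP1 are known to raise the genes of chaperones and of degradation. ATF4 acts on another set, which includes Ddit3, Trib3 and Chac1, and is also reached by other kinases without the endoplasmic reticulum. A gene-level count cannot show cutting, splicing or phosphorylation.

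All 32 genes passed the filter on low values. Every value below is a normalized count, a read count divided by 1 size factor per library, unless a log2 fold change is named. The libraries held 16930212 to 19197376 reads assigned to genes, and the 32 genes together took 1.05% to 1.09% of the reads with DMSO and 1.07% to 1.19% with C28. Of 12 germline markers 4 had 0 reads, which allows up to 3 reads over the 6 libraries. The label is not borne out by Ddx4 (4 reads in all), Dazl (1 read) or Pou5f1 (0 reads). The 3 that averaged 10 or more were Ifitm3 (201), Dnd1 (32.7) and Zbtb16 (27.1). Of 12 mast cell markers 8 averaged 10 or more, while the receptor chain Fcer1a and the tryptase Tpsb2 had 0 reads. The summed level of the mast cell list was 60322 to 60752 with DMSO and 54863 to 56852 with C28. The means of Gata2 (25072 and 22414), Kit (22046 and 19928) and Mitf (1245.5 and 1117) were lower with C28. Those of Cpa3 (6717 and 6789.5), Il1rl1 (3947.5 and 4075), Fcer1g (1381 and 1478), Hdc and Cma1 were higher. The lower sum was therefore not shared by all markers of the list, and its part in the results below was not tested. In bulk RNA, fewer cells of a type and less of an RNA per cell cannot be told apart. The sums of the other lists overlapped between the groups: germline 201 to 343 and 172 to 318, leukocyte 9170 to 9305 and 9302 to 9906, fibroblast and feeder 1957 to 5028 and 2182 to 5213, ovarian somatic 166 to 242 and 176 to 255. Replicate 1 had the lowest fibroblast and feeder sum of each group (1957 with DMSO and 2182 with C28). It also had the lowest germline sum (201 and 172) and the highest ovarian somatic sum (242 and 255) of each group. Its leukocyte sum was the lowest with DMSO and the highest with C28. The part of these differences between replicates in the results below was not tested.

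The sequences around the starts of these genes were searched for elements through which genes of this kind are known to be controlled. RefSeq windows on GRCm38.p6, from 250 bases before to 50 bases after the annotated start, were matched by symbol for 26 of the 32 genes. Atf6, Derl1, Erlec1, Hspa13, Hyou1 and Manf had no match. The endoplasmic reticulum stress element, ERSE, was searched on both strands as CCAAT and CCACG with any 9 bases between them. It was in the windows of 9 of the 26 genes, Hspa5, Hsp90b1, Pdia6, Dnajc3, Calr, Canx, Creld2, Syvn1 and Derl3, and in 0.119% of all 32851 windows. The shorter ERSE-II, searched on both strands as ATTGG and CCACG with any 1 base between them, was before Herpud1 and just after the start of Dnajb11, and in 0.0365% of all windows. An ATF4 composite element, searched on both strands as TGATGNAA, was before Herpud1 alone among the 26, and in 3.97% of all windows. None of the 26 windows held the XBP1 core TGACGTGG, found in 0.676% of all. Only exact matches were counted, and a match is a description of letters, not a shown binding site. Herpud1 has CCAAT, 9 bases and CCAC directly before its start, and so misses an ERSE match by the last base alone.

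The sites below were chosen to set chaperones and the ubiquitin ligase gene Syvn1 beside Herpud1, each read 5′ to 3′ on the strand of the match, with the 2 fixed blocks in capitals, or the whole element for the ATF4 composite.
Hspa5 ERSE, chr2:34772025-34772043, plus strand: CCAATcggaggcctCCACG
Hsp90b1 near ERSE, chr10:86705533-86705551, plus strand: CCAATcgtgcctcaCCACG
Hsp90b1 far ERSE, chr10:86705638-86705656, minus strand: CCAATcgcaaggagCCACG
Calr ERSE, chr8:84847075-84847093, plus strand: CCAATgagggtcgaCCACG
Syvn1 ERSE, chr19:6046532-6046550, plus strand: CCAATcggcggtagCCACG
Dnajb11 ERSE-II, chr16:22857852-22857862, plus strand: ATTGGcCCACG
Herpud1 ERSE-II, chr8:94386377-94386387, plus strand: ATTGGgCCACG
Herpud1 ATF4 composite, chr8:94386317-94386324, minus strand: TGATGCAA

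The 150 bases before the start of Herpud1 and of Hspa5 are shown next, because these 2 genes stand for the member with the largest called change and for the main chaperone of the compartment. Both are on the plus strand, and capitals mark the same elements, so that the ATF4 composite of Herpud1 appears as its reverse complement.
Herpud1, chr8:94386279-94386428: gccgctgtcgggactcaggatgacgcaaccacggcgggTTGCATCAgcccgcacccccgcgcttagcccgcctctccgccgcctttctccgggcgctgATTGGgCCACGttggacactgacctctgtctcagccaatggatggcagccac
Hspa5, chr2:34771940-34772089: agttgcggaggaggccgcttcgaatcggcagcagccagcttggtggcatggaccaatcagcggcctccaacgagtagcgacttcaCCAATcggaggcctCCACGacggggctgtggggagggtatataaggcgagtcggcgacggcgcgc

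**Figure D1:**
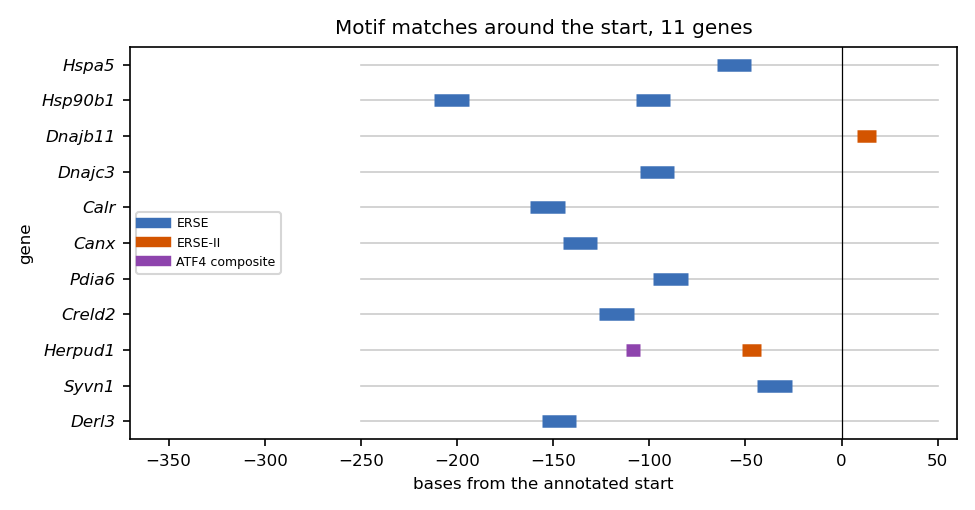
Motif matches (bars) in bases from the annotated start (x axis) for the 11 genes with a match (y axis); grey lines are the windows searched. ERSE matches lie before the start in 9 genes, and Herpud1 is the gene with both an ERSE-II and an ATF4 composite match.

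Herpud1, whose membrane protein helps to deliver misfolded proteins to the proteasome, was the member that moved most among those called. Its values were 1412, 1572 and 1331 in DMSO replicates 1 to 3 and 1867, 2483 and 2148 in C28 replicates 1 to 3. Every C28 library was above every DMSO library. The means were 1438 ± 123 and 2166 ± 309 (SD, n = 3 each), a 1.5-fold difference with a log2 fold change of 0.58 ± 0.12 (SE).

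In limma over 19054 genes, 0 of the 32 members were called higher and 0 lower at an adjusted p under 0.05, where 0.121% and 0.0157% of all genes were called. At an unadjusted p under 0.05 there was 1 member, Herpud1, against 7.83% of all genes. On whole reads recovered from the table edgeR called 0 members (0.131% of all genes were called higher) and DESeq2 called 1, Herpud1 (0.921%). Same-numbered libraries deviated together, so calls were also made in a model with a term for that number, called the block here. With that block 3 of 32 rose, Herpud1, Atf6 and Ern1, where 2.55% of all genes rose, and 0 fell, where 2.25% fell. At an unadjusted p under 0.05 the block fit held 7 members (21.9%), close to the 18.2% of all genes. With the same term edgeR called the same 3 higher (3.71% of all genes) and 0 lower (3.28%), and DESeq2 called Herpud1 and Atf6 higher (3.62%) and 0 lower (3.18%).

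For Herpud1 the limma adjusted p was 0.199 without the block and 0.000544 with it, where the SE was 0.06. The DESeq2 adjusted p was 0.00254 without the block, and the authors' deposited table gives a log2 fold change of 0.48 with an adjusted p of 0.00215. Herpud1 was the only one of the 31 members with an adjusted p in the authors' deposited table to fall under 0.05. Leaving out pair 2 ended the call of the block fit (limma adjusted p 0.0726), while it stayed without pair 1 (0.000354) and without pair 3 (0.0295). The size moved little, from 0.53 to 0.67 on the log2 scale over these 3 fits.

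The 17 genes of folding and import gave small differences, 13 of them above 0, and 9 were higher in all 3 same-numbered pairs, where 20.6% of all genes tested were. With limma 0 of them passed without the block and 0 with it, and edgeR and DESeq2 also called 0 in either design. At an unadjusted p under 0.05 there were 0 without the block and 2 of 17 with it, Dnajb9 and Hspa13, a smaller share than the 18.2% of all genes. Their median log2 fold change was 0.06, from -0.04 for Hyou1 to 0.21 for Dnajb9, beside 0.0042 over all genes tested. The median was 0.033 without DMSO replicate 1 and 0.034 without C28 replicate 1. The 95% confidence intervals of the 17 genes lay between a 0.849-fold and a 1.36-fold change, so that a doubling is outside the interval of each one.

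Hspa5 encodes BiP, the HSP70 chaperone that also holds the sensors inactive. It was at 26296, 20777 and 22317 with DMSO and at 27828, 22619 and 22500 with C28. The replicate 1 library was the highest of its group in both, and the groups overlapped. The log2 fold change was 0.07, with a 95% confidence interval from -0.20 to 0.34 (limma), and from -0.02 to 0.16 with the block.

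Hsp90b1, the HSP90 of the compartment, was at 18654, 19183 and 20959 with DMSO and 19688, 20620 and 21740 with C28. It was higher in each same-numbered pair, by 0.05 to 0.10 on the log2 scale, but did not pass (limma adjusted p 0.881, and 0.328 with the block). Calr, the soluble lectin chaperone calreticulin, was at 24638, 23615 and 23721 with DMSO and 25638, 21841 and 22682 with C28, with overlapping groups and an interval of the log2 fold change from -0.21 to 0.13. Its membrane-bound relative Canx averaged 17338 ± 1424 and 18121 ± 1514. These were members with windows that hold an ERSE, as did Pdia6, Dnajc3 and Creld2.

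The disulfide isomerases, which form and shuffle disulfide bonds, also did not pass. The mean of Pdia3 was 17901 ± 250.2 (SD) in the 3 DMSO libraries and 18224 ± 349 in the 3 C28 libraries, and its interval of the log2 fold change was -0.09 to 0.15. P4hb averaged 15993 ± 627 and 16353 ± 319, Pdia6 11452 ± 361 and 12061 ± 537, and Pdia4 9259 ± 791 and 9939 ± 267. Creld2, a further protein with isomerase activity, averaged 2244 ± 17.7 and 2202 ± 52.7, and was the only member lower with C28 in all 3 pairs, by at most 0.06 on the log2 scale.

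The co-chaperones of BiP are its J-domain partners and its nucleotide exchange factor. Dnajb9, which helps BiP to restrain IRE1, was at 251, 245 and 257 with DMSO and 295, 292 and 287 with C28. These groups did not overlap, and the 1.16-fold difference did not pass the test (limma adjusted p 0.668, and 0.239 with the block). Dnajb11 averaged 3199 ± 126 and 3208 ± 113, and Dnajc3, an inhibitor of PERK, 2613 ± 213 and 2800.3 ± 453. Hyou1, the exchange factor, averaged 7799 ± 259.9 and 7595 ± 794. Sdf2l1, which works with Dnajb11, averaged 2712 ± 151 and 2706 ± 222.

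The remaining members of that group are an atypical HSP70, a secreted protective factor and a subunit of the import channel. Hspa13 averaged 2477 ± 112 with DMSO and 2794 ± 375 with C28, with C28 replicate 1 at 3208 against 2476 and 2699 in the other C28 libraries. Manf, a small protein that binds BiP, averaged 4230.4 ± 199.6 and 4551 ± 281. Sec61b, of the SEC61 channel, averaged 2469 ± 121 and 2589 ± 279. None of the 3 passed in limma with or without the block.

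**Figure D2:**
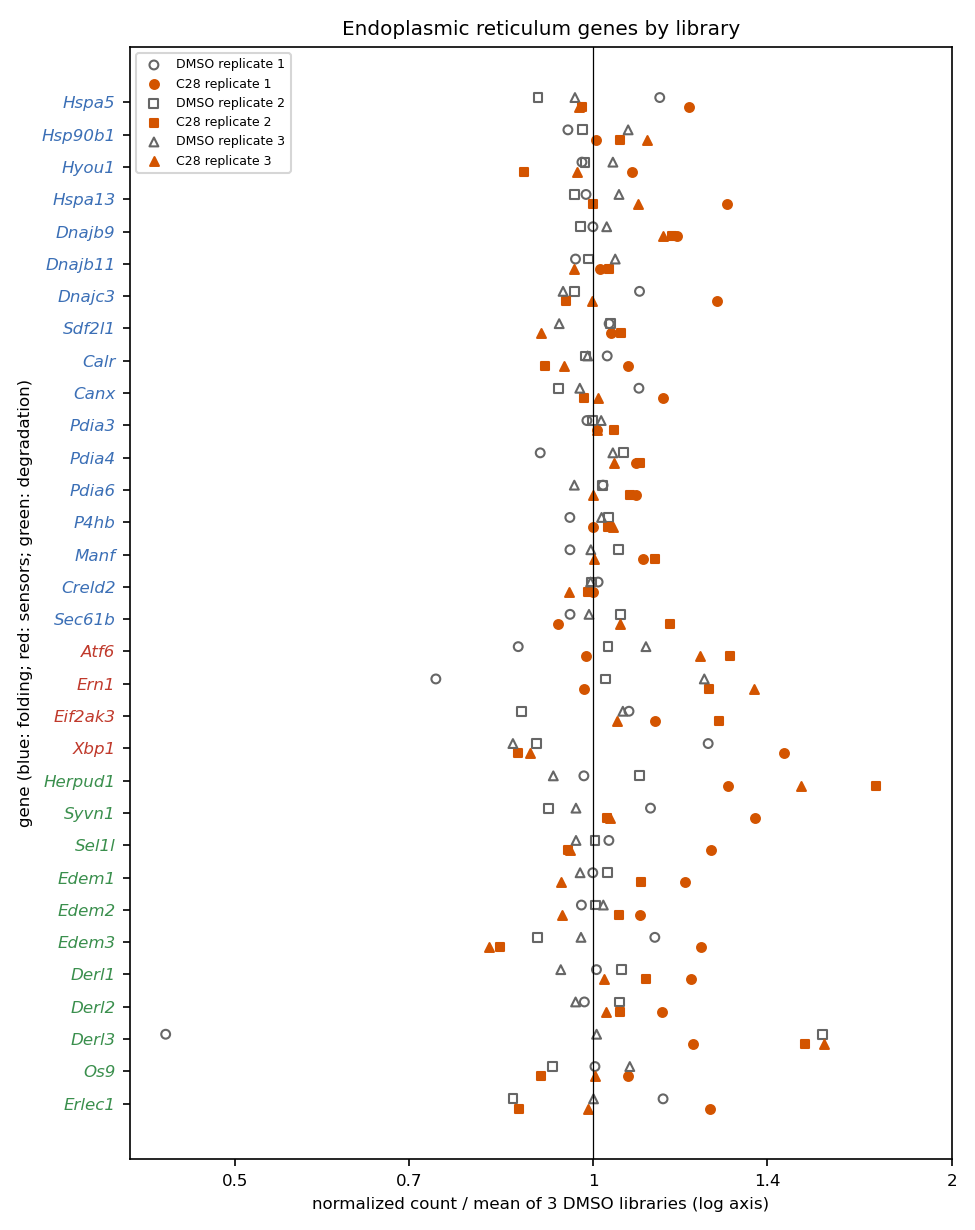
Normalized count of each of the 32 genes (y axis) in each of 6 libraries, divided by the mean of the 3 DMSO libraries (x axis, log scale); open symbols are DMSO, filled symbols C28, and the shape gives the replicate number. The folding genes cluster around 1, while the 3 C28 values of Herpud1 lie to the right of its 3 DMSO values; the 2 groups also separate for Dnajb9.

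The 4 sensor genes had a median log2 fold change of 0.21, and each was above 0. In the plain limma model 0 of 4 passed, 0 had an unadjusted p under 0.05, and edgeR and DESeq2 called 0. With the block Atf6 and Ern1 rose, and Eif2ak3 and Xbp1 did not pass.

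Atf6 was at 2120, 2523 and 2715 with DMSO and at 2418, 3196 and 3012 with C28. Replicate 1 was the lowest library in each group, and the groups overlapped. The change was 1.17-fold (log2 fold change 0.23), with a limma adjusted p of 0.763 without the block and 0.0326 with it. In the block fit the adjusted p was 0.0417 without pair 1, 0.414 without pair 2 and 0.174 without pair 3, so the call was lost without pair 2 and without pair 3. With 1 library left out its log2 fold change ran from 0.13 (without DMSO replicate 1) to 0.35 (without C28 replicate 1).

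Ern1 was at 513, 713 and 863 with DMSO and at 684, 870.3 and 949.7 with C28. Replicate 1 was again the lowest in each group, and the groups overlapped. Its log2 fold change was 0.28, with pairs at 0.41, 0.29 and 0.14. Leaving out DMSO replicate 1 gave 0.076, leaving out C28 replicate 3 gave 0.18, and leaving out DMSO replicate 3 gave 0.45. The limma adjusted p was 0.844 without the block and 0.0485 with it, just under the threshold, and leaving out pair 1, 2 or 3 gave 0.117, 0.371 and 0.143, so that the call was lost each time. DESeq2 with the block did not call Ern1, whereas edgeR with the block did (adjusted p 0.02).

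Eif2ak3 was at 519, 422 and 513 with DMSO and at 546, 617 and 507 with C28. Its positive log2 fold change of 0.20 came mostly from pair 2, at 0.55, beside 0.07 and -0.02 in pairs 1 and 3. It did not pass in limma, with an adjusted p of 0.785 in the plain model and 0.341 in the block model. Without pair 2 the log2 fold change was 0.028. Xbp1 was at 4903, 3518 and 3360 with DMSO and at 5675, 3394 and 3472 with C28. Replicate 1 stood well above the others in both groups, 1.43 times their mean with DMSO and 1.65 times with C28. The log2 fold change was 0.07 with an interval from -0.45 to 0.59, and from -0.05 to 0.19 with the block. Its sign was not stable: without C28 replicate 1 it was -0.17 and without DMSO replicate 3 it was -0.033.

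**Figure D3:**
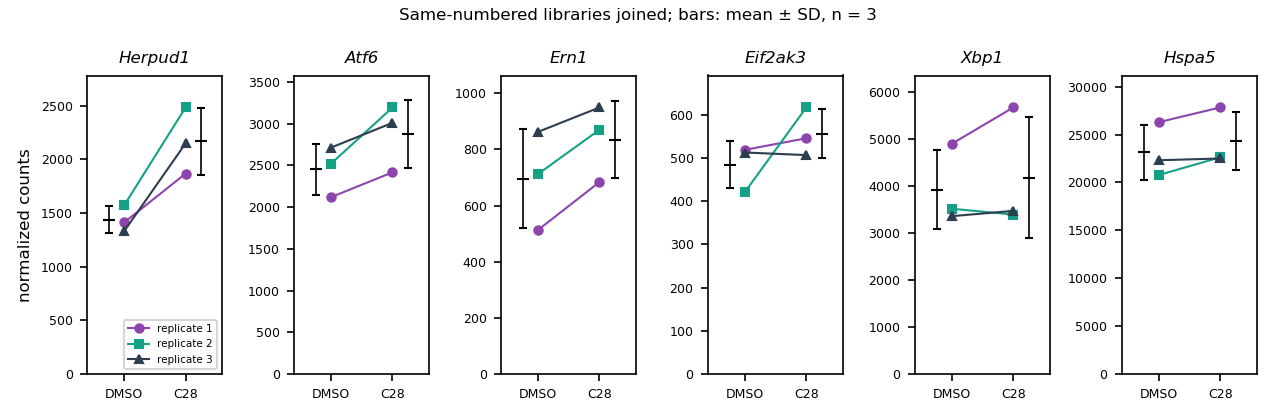
Normalized counts (y axis, from 0) of 6 genes in each library, with same-numbered DMSO and C28 libraries joined by lines; black bars are the mean ± SD of 3 libraries. All 3 lines go up for Herpud1, Atf6 and Ern1, and replicate 1 lies apart for Xbp1 and Ern1.

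Of the 11 degradation genes, Herpud1 was the only one to pass in any fit. The median log2 fold change of the 11 was 0.10. It rested on C28 replicate 1, without which it was 0.021, and it was 0.020 without replicate 1 of both groups. Syvn1, the ubiquitin ligase HRD1, was at 1251, 1027 and 1083 with DMSO and at 1533, 1150.3 and 1157 with C28. It was higher in all 3 pairs, with a log2 fold change of 0.18, and did not pass (limma adjusted p 0.843, and 0.118 with the block). Sel1l, the scaffold of that ligase, averaged 2747 ± 87.5 and 2897 ± 476, with C28 replicate 1 at 3447 and the other C28 libraries at 2617 and 2627.

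The derlins are membrane proteins of the channel through which substrates leave. Derl1 averaged 2252 ± 132 and 2504 ± 209 and Derl2 1093 ± 49.5 and 1174 ± 67.3, both higher in 3 of 3 pairs and neither called (limma adjusted p 0.755 for Derl1 and 0.860 for Derl2, falling to 0.15 and 0.424 in the block model). Derl3 was close to the detection limit, at 3.74, 13.3 and 8.61 with DMSO and 10.4, 12.9 and 13.4 with C28. Its log2 fold change of 0.60 had an interval from -0.49 to 1.69, so no change was detectable at this depth.

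Of the lectins and mannosidases that pick out misfolded glycoproteins, 0 of 5 passed in limma with or without the block. Edem1 averaged 2401 ± 62.9 and 2585 ± 309, Edem2 1512 ± 32.4 and 1556 ± 119, and Edem3 2569 ± 298 and 2468 ± 600.2. Os9 averaged 2276 ± 169 and 2259 ± 190.01, and Erlec1 684 ± 98.6 and 709 ± 135. Edem3 had the lowest log2 fold change of the 32 members, -0.08, with an interval from -0.46 to 0.31 (limma). Its C28 libraries were at 3161, 2145 and 2099, the first of them above every DMSO library and the other pair of them below.

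**Figure D4:**
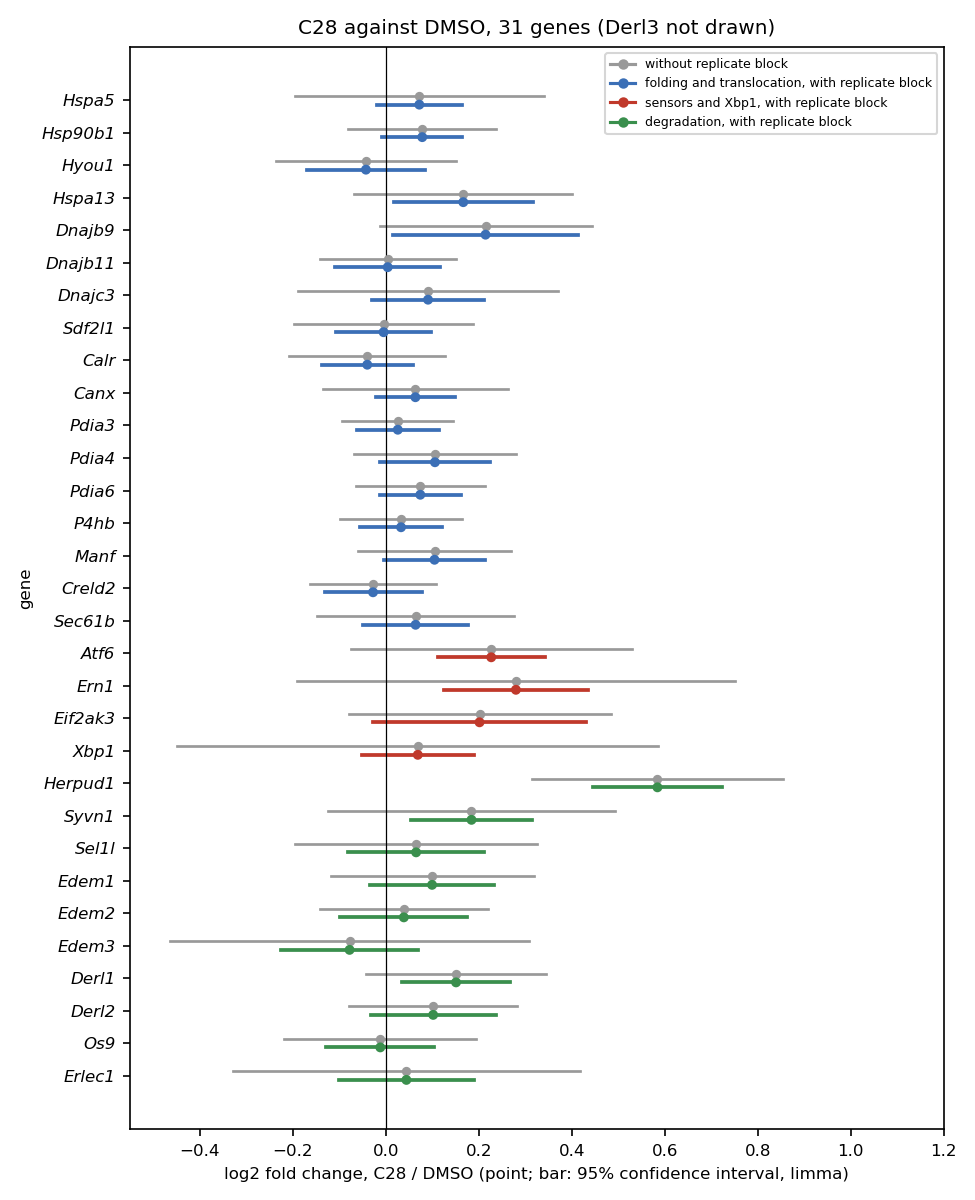
Log2 fold change of C28 against DMSO (x axis) for 31 genes (y axis), with 95% confidence intervals from limma, in grey without and in colour with the replicate block; Derl3, with a much wider interval, is not drawn. The interval of Herpud1, 0.31 to 0.86 without the block, starts above 0, and with the block those of Atf6, Ern1, Dnajb9, Hspa13, Syvn1 and Derl1 also lie above 0.

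Direction was counted over all members as well. With C28, 26 of the 32 had a log2 fold change above 0, where 51% of all genes tested did, and 6 below. In all 3 same-numbered pairs 15 were higher, where 20.6% of all genes were, and 1 was lower, where 19.4% were. The groups did not overlap for 2 members, both higher with C28, where 8.16% of all genes were; 0 were wholly lower, where 6.49% were. Replicate 1 gave the highest value in both groups for 11 members (34.4%, against 23.2% of all genes tested) and the lowest in both for 7 (21.9%, against 24.0%). Xbp1, Hspa5, Edem3 and Erlec1 were among the first set, and Atf6, Ern1 and Hsp90b1 among the second.

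Other genes of the compartment and of its stress pathways were read from 6 lists, tested in the same libraries. Not all of their products, least of all those of the PERK branch, lie in the compartment. In the list of other folding genes, 0 of 23 passed in limma without the block (0 by edgeR, 0 by DESeq2). At an unadjusted p under 0.05 there were 2 of 23 in limma, where 7.83% of all genes were. With the block 2 of 23 rose, where 2.55% of all genes did. One was Ero1l, the oxidase that recharges disulfide isomerases, from 7547 ± 357 to 8997 ± 713 (1.19-fold). The other was Dnajb14, a membrane J-domain protein, from 252 ± 26.6 to 381 ± 90.7 (1.49-fold). Of 17 genes of the translocon and signal peptidase, which import proteins and remove their signal sequences, 0 passed in limma in either design (0 at an unadjusted p under 0.05 without the block, and 3 of 17 with it, where 18.2% of all genes were), and edgeR and DESeq2 called 0 in either. Their median log2 fold change was 0.03.

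Of 14 genes that attach or trim N-glycans, 0 passed without the block in limma (0 at an unadjusted p under 0.05, 0 by edgeR and 0 by DESeq2). With the block 1 of 14 fell, where 2.25% of all genes did. It was Mogs, the first glucosidase to act on a new glycan, from 7072 ± 866 to 5859 ± 959 (0.825-fold). In limma its adjusted p was 0.716 without the block and 0.00502 with it. Of 20 other degradation genes, 0 passed without the block in limma and 0 in edgeR. DESeq2 called 1, Ubxn4, where it called 0.921% of all genes higher. At an unadjusted p under 0.05 there were 2 of 20 in limma, where 7.83% of all genes were. With the block 2 of 20 rose, where 2.55% of all genes did. These were Ubxn4, a membrane adaptor of the extraction ATPase VCP, from 5903 ± 858 to 8896 ± 1820.1 (1.5-fold), and Rhbdd1, a rhomboid protease, from 322 ± 121 to 462 ± 131 (1.46-fold). The last list had 11 genes, for membrane-bound factors, the proteases that release them and related regulators. Of these 1 rose with the block, where 2.55% of all genes did. It was Crebrf, a regulator of CREB3 and not itself membrane-bound, from 73.4 ± 28.8 to 138 ± 63.1 (1.84-fold). Its limma adjusted p was 0.632, and 0.0071 once the block was added. Without the block 0 of the 11 passed in limma (0 by edgeR, 0 by DESeq2). At an unadjusted p under 0.05 there were 2 of 11 in limma, where 7.83% of all genes were.

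The list named PERK branch held the most calls of the 6 lists. All 6 lists were chosen with earlier results of these data known, so this order is a description and not independent support. The PERK branch list holds Atf4 and genes on which ATF4 acts, and ATF4 is also reached by other kinases. It also holds Eif2s1 and Ppp1r15b, which serve the eIF2 alpha step before ATF4. Whether PERK or another of these kinases was at work was not tested. Eif2ak3 RNA was not called, and its level cannot show the activity of the kinase. Of the 10 genes of this list 4 rose in limma without the block, where 0.121% of all genes did. With the block 8 rose, where 2.55% of all genes did. In both fits 0 fell, and the median log2 fold change was 0.81. The 4 were Trib3 (4.44-fold), Chac1 (4.2-fold), Sesn2 (2.04-fold) and Atf4 (1.78-fold). With the block Ddit3, the death-linked factor CHOP, also rose, from 290 ± 72.6 to 504 ± 117, and so did Ppp1r15a, a phosphatase subunit that reverses eIF2 alpha phosphorylation, from 471 ± 19.2 to 633 ± 50.4. In limma with the block the adjusted p was 0.000669 for Ddit3 and 0.0118 for Ppp1r15a; it was 0.442 and 0.261 in the plain model. The 2 genes not called were Eif2s1 and Ppp1r15b. Eif2s1, which encodes eIF2 alpha, averaged 5441 ± 113 and 5381 ± 336, and Ppp1r15b, the constant counterpart of Ppp1r15a, 3000.2 ± 103 and 3312 ± 303. Ddit3, Ppp1r15a, Eif2s1 and Ppp1r15b were named after their values were seen. Whether this list differed from the folding genes was not tested as such.

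**Figure D5:**
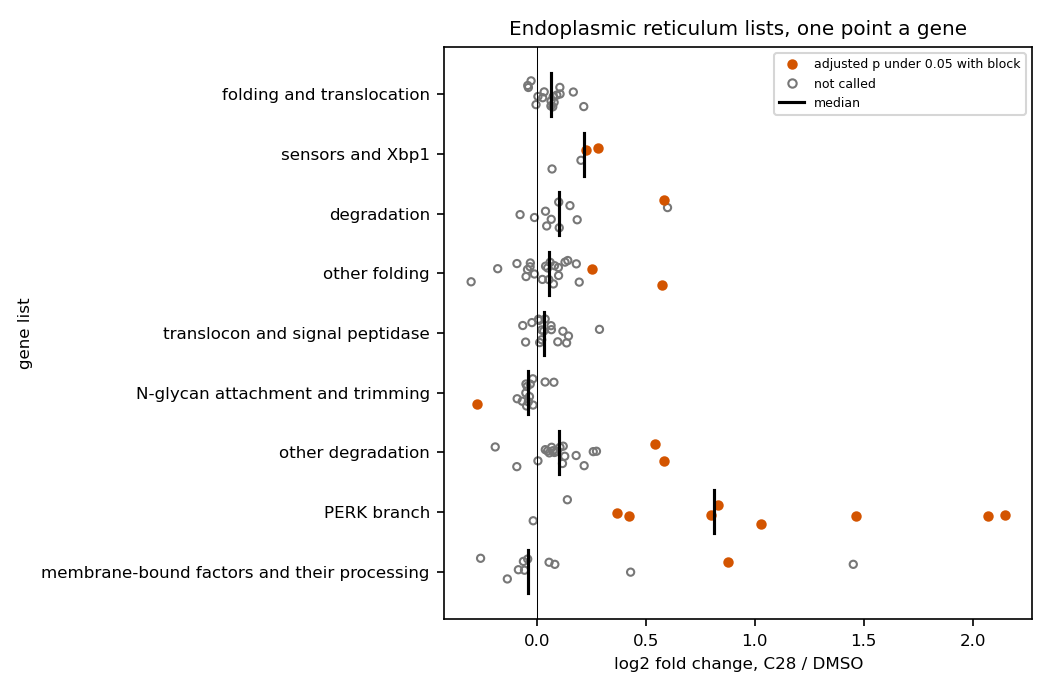
Log2 fold change of C28 against DMSO (x axis) for the members in 3 groups and for 6 lists of related genes (y axis), 1 point a gene, with the median as a black bar; filled points had an adjusted p under 0.05 with the replicate block. The medians run from -0.04 to 0.21 except in the PERK branch, at 0.81.

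The elements shown above can be set beside these values over all genes. Of the 11344 tested genes with a promoter window, 3.21% rose and 2.93% fell in limma with the block. Of 21 tested genes with an ERSE, 9 of them members, 0 rose and 0 fell, and their median log2 fold change was 0.07. Of 11 with an ERSE-II, 2 rose, Herpud1 and Lrif1, and 0 fell, while Dnajb11 had a log2 fold change of 0.004. Of 316 with an ATF4 composite match, 33 rose (10.4%) and 7 fell (2.22%), with a median of 0.08. These are counts of letters near a start and of calls, and no enrichment was tested.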

How the data were processed

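The deposited values are normalized counts (a signal scale). That the authors scaled each library's reads by 1 factor was read from the numbers: dividing by what 1 read is worth (0.935 to 1.07) gave whole reads, within 0.01, for 100% of values. Log2 fold changes and adjusted p-values of the authors are in the same deposited table. Bowtie2, Cufflinks 2.2.1 and mm9 are named, without roles, per the submitters' processing notes. How reads were counted, and whether by strand, is not given in the sources used here. Overlapping and antisense genes may share reads. Gene lengths were not used, so levels are not compared between genes.

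Names missing from the table came from a table of Ensembl identifiers, and a name with several rows was represented by its most abundant one. Testing covered the 19054 genes that reached a value of 1 in 3 or more of the 6 libraries, by limma 3.58.1 (R 4.3.3, trended prior) on log2(value + 1), with Benjamini-Hochberg adjustment over all of them and a threshold of 0.05; this understates changes of low genes. The design also allowed for raw counts; edgeR 4.0.16 and DESeq2 1.42.0 were run on the recovered reads. The limma fits were tested on simulated data, with larger changes than those of any member and an effect shared by same-numbered libraries. Smaller changes and unpaired libraries were not simulated.

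Deviations from the group means over 10572 genes correlated at 0.84, 0.68 and 0.71 between same-numbered libraries and best with their own number. Pairing is therefore taken from the data, since no label states it; DMSO replicate 2 also correlated with C28 replicate 3 at 0.54.

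Members, gene lists, motifs and tests were chosen with earlier results of these data known. Named genes are all members and, from each list, at most 4 genes past the threshold in either limma fit, by smallest p with the block; the PERK branch has 4 more, named after their values were seen. The H3K27ac peak lists, on mm9, were not used here: gene positions were at hand only for GRCm38, and builds were not converted.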

Additional observations from a re-analysis of the deposited data

How the results depend on the processing

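Without a block, the count of members called higher was 0 in limma under both other pseudocounts, both other filters, TMM scaling and with any 1 library left out (0 to 0), and in edgeR; DESeq2 gave 1. With the replicate block it was 3 in limma, 3 in edgeR and 2 in DESeq2, and in limma with the block 2 without replicate 1, 0 without replicate 2 and 1 without replicate 3. The count called lower was 0 under all 20 alternatives. The median log2 fold change of the folding genes fell from 0.064 to 0.028 without replicate 1, with or without the block, and moved by less than the spread between replicates in the other 18 (0.033 to 0.065 with any 1 library left out); those of the sensor and degradation genes also moved by less than that spread in all 20, although the degradation median fell from 0.099 to 0.021 without C28 replicate 1 and to 0.020 without replicate 1 of both groups. Leaving out 1 library moved Xbp1 between -0.17 and 0.24, and its sign changed in 5 fits: -6.45e-05 (DMSO replicate 2 left out), -0.033 (DMSO replicate 3), -0.17 (C28 replicate 1), and -0.0023 without replicate 1 of both groups, with or without the block; the cause was not tested. Herpud1 stayed between 0.48 and 0.69, Atf6 between 0.13 and 0.35, Ern1 between 0.076 and 0.45 and Eif2ak3 between 0.028 and 0.31, in all 20.

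Over all genes limma called 26 without the block and 914 with it, edgeR 28 and 1332, and DESeq2 182 and 743. In limma 9, 8 and 5 were called without DMSO replicate 1, 2 and 3, and 23, 0 and 8 without C28 replicate 1, 2 and 3. The count of 0 had 1204 genes with an unadjusted p under 0.05, and edgeR and DESeq2 were not run on those 5 libraries. Without replicate 1 of both groups 91 were called. With the block, 853 were called without pair 1, 50 without pair 2 and 207 without pair 3. H3K27ac peaks at these genes, with other thresholds, windows and overlaps, were not run, since no gene positions of that build were at hand.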
